A study of Mus musculus with 6 samples.

Results

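Light-exposed and untreated mouse retina were compared 4 days after the light in 4 of the 6 sequenced retinal mRNA libraries, 2 per group, and over the 14349 of 23420 genes that passed a filter on low counts. The light-exposed retinas had received light of 10000 lux for 1 h, as the sample labels state it, and the controls no treatment. The labels give the strain CD1, whereas the study's methods describe BALB/cJ mice, an albino strain, aged 10 to 14 weeks, male and female, which were kept in the dark and had their pupils dilated before a light of higher intensity. The other 2 libraries of the series came from retinas that received the same light and intraperitoneal injections of minocycline at 45 mg/kg, daily for 4 days by the labels and on a longer schedule that began before the light by the study's methods. The study's methods call the libraries biological replicates, but how many retinas or animals entered a library is not given in the sources used here, so the p-values measure the spread between these libraries.

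Rods are the dim-light photoreceptors and the most numerous cells of the mouse retina. Light absorbed in their outer segment activates transducin, a phosphodiesterase then lowers cyclic GMP, and channels of the outer segment close. The outer segment is a modified cilium, and the other end of the cell holds a ribbon synapse onto bipolar cells. Bright light kills rods in albino mice, Müller glia enter a reactive state, and microglia, the resident macrophages, move into the photoreceptor layer and take up debris.

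The libraries held 15205930 and 15246937 counts in the controls and 15908907 and 18875611 counts after light, for replicates 1 and 2 in this order, which is kept for all values that follow. A count above 0 was found for 16594 to 17421 genes per library. Levels are given as CPM, counts relative to the library size after TMM adjustment. Across genes, which are not independent replicates, log2 CPM of replicates correlated with Pearson's r of 0.982 in control and 0.983 after light. Some libraries stood apart. Xist, the RNA that coats the inactive X chromosome, had 77778 counts in control 1 and 25 to 188 in the other 3 libraries. The Y-linked gene Ddx3y had 3 counts in control 1 and 2635 to 4516 in the others. By these genes control 1 was female and the other 3 libraries male, so sex was not balanced between the groups. The part of sex in the changes was not tested. Light-exposed replicate 1 also held 1863 counts of Cryaa, a lens crystallin, against 1 or 2 in the other libraries. The tissue label was met by the rod genes, whose summed level was 134570.0 and 111227 CPM in the controls and 83233 and 60185 CPM after light.

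After light, 1624 genes passed an adjusted p of 0.05 in edgeR's quasi-likelihood test, 1079 of them higher (7.52% of the genes tested) and 545 lower (3.80%). Both directions differed in size and in level. A change of at least 4-fold, the cutoff of the study's methods, was reached by 415 higher genes (2.89% of all genes tested) and by 4 lower genes (0.0279%). Of the lower genes, 93 fell by less than 1.5-fold, 396 by 1.5 to 2-fold and 52 by 2 to 4-fold, with a median log2 fold change of -0.71. The median among the higher genes was 1.60, and over all genes tested it was 0.0025. The median control level was 134 CPM for the lower genes, 3.78 CPM for the higher genes and 24.0 CPM for all genes tested.

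**Figure D1:**
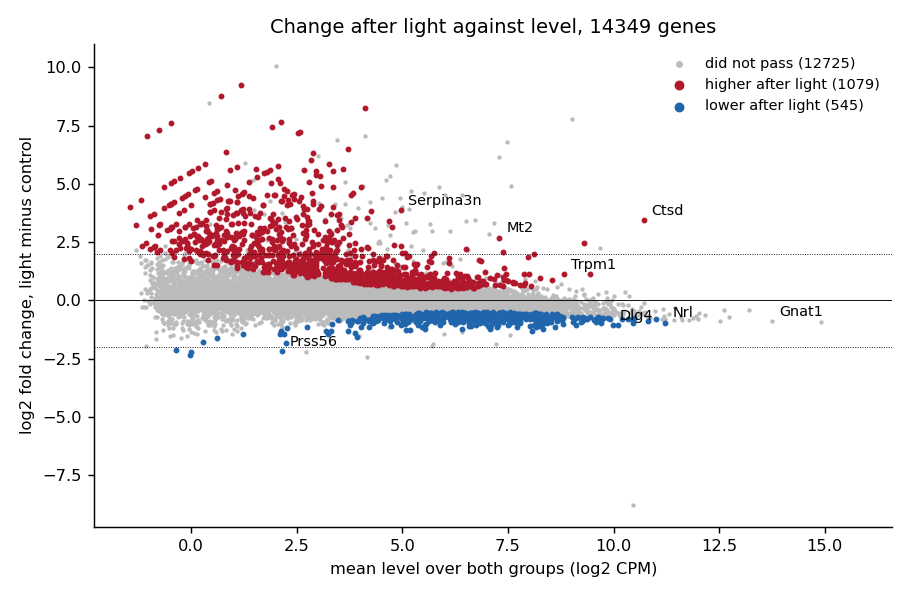
Each point is 1 of 14349 genes, with the mean level of both groups (log2 CPM) on the x axis and the log2 fold change of light over control on the y axis. Red and blue points passed an adjusted p of 0.05, and dotted lines mark 4-fold. The 1079 higher genes lie mostly at low and middle levels and reach far above the upper line, while the 545 lower genes form a narrow band, mostly between the lower line and 0, that extends to high levels. The single point near the bottom edge is Xist.

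**Figure D2:**
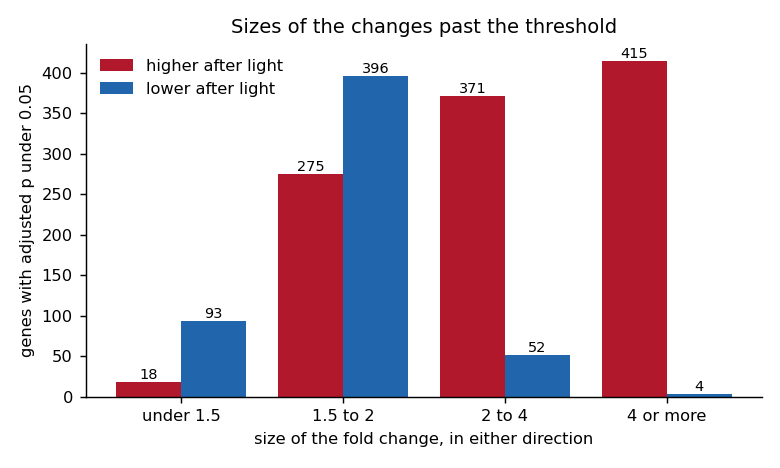
Bars count the genes past an adjusted p of 0.05 in each range of fold change (x axis), red for higher and blue for lower after light. The largest blue bar is 396 genes at 1.5 to 2-fold, and the largest red bar is 415 genes at 4-fold or more.

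Counts of all lower genes made up 11.3% and 11.4% of the control libraries and 8.40% and 7.30% of the light-exposed libraries. For the higher genes the shares were 1.65% and 1.55% in the controls and 3.31% and 5.28% after light. Light-exposed replicate 2 lay further from the controls than replicate 1 for 1049 of the 1079 higher and 503 of the 545 lower genes. The number of calls depended on single libraries. Without control 1, 4 genes were called higher and 0 lower (at an unadjusted p of 0.05, 2191 and 2042). Without control 2 the numbers were 20 and 37, leaving out light-exposed replicate 2 gave 443 and 54, and leaving out replicate 1 of that group gave 1683 and 462. Of the gene lists described in what follows, without control 1 calls were left only in those of reactive glia (2) and lens (1), and without control 2 only in those of reactive glia (4), early response (4 lower), matrix (2), complement, MHC class I and lens (1 each). In all 1624 called genes the groups did not overlap, as in 60.8% of all genes tested. With total library size in place of TMM, 1930 genes were higher and 133 lower (93.6% of the calls higher, against 66.4% with TMM), and the median of all genes moved to 0.24 on the log2 scale. Changes are therefore given relative to the median gene.

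The list of rod phototransduction genes was lower in both light-exposed libraries by its median, and a few members passed the test. Of 21 tested genes, all 21 had a negative log2 fold change, with a median of -0.74 and a range of -0.94 to -0.33. The test was passed by 4 of them (all genes tested: 3.80% lower) and 0 genes were called higher. Gnat1, the alpha subunit of rod transducin, was at 20871 and 14808 CPM in the controls and 11367 and 7838 CPM after light. Both light-exposed libraries lay under both controls, but the replicates of each group were far apart, and the log2 fold change of -0.89 ± 0.33 (SE, adjusted p = 0.1) did not pass.

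The 4 genes that passed were Rgs9bp, Cngb1, Guca1b and Gucy2f. Rgs9bp anchors the protein that switches transducin off, and its level was 2316 and 2366 CPM in the controls and 1398 and 1125 CPM after light, a log2 fold change of -0.89 ± 0.22 (SE, adjusted p = 0.0293). Cngb1, the beta subunit of the cyclic GMP-gated channel of rods, was at 1895 and 1711 CPM in the controls and 1154 and 878 CPM after light, a change of -0.83 ± 0.22 (SE, adjusted p = 0.0372) on the log2 scale. Guca1b, an activator of guanylate cyclase, had 1785 and 1506 CPM in the controls and 1064 and 838 CPM after light, which gave -0.79 ± 0.22 (SE, adjusted p = 0.0413). Gucy2f, a guanylate cyclase of the outer segment, had 998 and 1131 CPM in the controls and 701 and 530.4 CPM after light, which gave -0.79 ± 0.21 (SE, adjusted p = 0.0352). In a bulk sample, fewer rods and less RNA per rod cannot be told apart.

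The number of rod genes past the threshold depended on the fit. DESeq2 called 19 of the 21 lower and edgeR without a filter on low counts 11, whereas scaling by total library size called 0, with a median of -0.51. The median was -0.63 without control 1, -0.82 without control 2, -0.97 with replicate 1 of the light-exposed group left out and -0.54 with its replicate 2 left out. The number called lower was 0 without control 1, 0 without control 2, 14 without the first light-exposed library and 0 without the other.

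Several transcription factors of photoreceptors fell. Of 14 tested, 5 were lower (all genes tested: 3.80%) and 0 higher, and the median log2 fold change was -0.65. The number lower was 10 in DESeq2, 1 with total library size, and 0 without light-exposed replicate 2. Nrl, which commits photoreceptor precursors to the rod fate and lies at chr14:55518978-55524981 (GRCm38), was at 3447 and 2878 CPM in the controls and 1812 and 1439 CPM after light, a log2 fold change of -0.96 ± 0.24 (SE, adjusted p = 0.0296). It was the gene with the largest loss in mean CPM among those that passed. Mef2c, a MADS-box factor, was at 174 and 152 CPM in the controls and 96.9 and 71.7 CPM after light, with -0.96 ± 0.18 (SE, adjusted p = 0.0137). The zinc finger factor Casz1, the orphan nuclear receptor Esrrb and the repressor Prdm1 also fell, with log2 fold changes of -0.79, -0.78 and -0.78. Crx, a homeobox factor of rods and cones, had 1809 and 1722 CPM in the controls and 1211 and 934 CPM after light and a log2 fold change of -0.72 ± 0.22 (SE, adjusted p = 0.0558), and Nr2e3, which represses cone genes in rods, had -0.78 ± 0.25 (SE, adjusted p = 0.0707). Both of these missed the threshold.

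Genes of the outer segment and its cilium were lower in 10 of 29 cases (all genes tested: 3.80%), with a median log2 fold change of -0.68 and a range of -0.92 to -0.21. DESeq2 called 22 of them lower and the fit of all 6 libraries 4, and 0 were called with total library size and 0 without light-exposed replicate 2. Kcnv2, a subunit of a potassium channel in the photoreceptor inner segment, was at 1048 and 962 CPM in the controls and 624 and 442 CPM after light, with -0.92 ± 0.21 (SE, adjusted p = 0.024). Rdh12, a retinol dehydrogenase, Reep6, a membrane-shaping protein of rods, and Rp1l1, a protein of the axoneme, fell by 0.83, 0.81 and 0.74 on the log2 scale. Fam161a, Cep290, Mak, Ttc8 and Bbs2, which build or regulate the connecting cilium, fell by 0.88, 0.71, 0.69, 0.68 and 0.56. The structural proteins of the discs, Prph2 and Rom1, had larger differences in level but also wider replicates, at -0.89 ± 0.28 (SE, adjusted p = 0.0652) and -0.85 ± 0.26 (SE, adjusted p = 0.0581), and did not pass.

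Families of ciliary genes were then counted by symbol, a choice made after their values were seen. They were counted only in the edgeR fit of 4 libraries with TMM scaling, so how these counts depend on the fit was not tested. Of 13 intraflagellar transport genes, whose products carry cargo along the cilium, 7 passed the test as lower (all genes tested: 3.80%) and 0 as higher, and 12 had a negative log2 fold change, with a median of -0.53. Ift88 was at 65.5 and 81.6 CPM in the controls and 43.7 and 44.2 CPM after light, with -0.74 ± 0.16 (SE, adjusted p = 0.0197). The products of Bardet-Biedl syndrome genes named Bbs form a coat for ciliary membrane traffic or help to assemble it. Among 8 of these genes 4 were lower (against the same 3.80%) and 0 higher, with a median of -0.55. Bbs2 and Bbs4 were also in the outer segment list. The falls in these genes were smaller than 2-fold throughout, the largest reaching -0.74 for Ift and -0.67 for Bbs genes.

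At the ribbon synapse of photoreceptors, 4 of 20 genes were lower (all genes tested: 3.80%) and 2 higher (all genes tested: 7.52%), with a median log2 fold change of -0.45. DESeq2 called 10 lower and 2 higher, the fit of all 6 libraries 2 and 0, and the fit without light-exposed replicate 2 called 0 and 0. Elfn1, an adhesion protein of the rod terminal, was at 138 and 144 CPM in the controls and 87.5 and 66.4 CPM after light, with -0.88 ± 0.17 (SE, adjusted p = 0.0141). Cabp4, a calcium-binding regulator of the presynaptic calcium channel, was at 337 and 329 CPM in the controls and 216 and 164 CPM after light, with -0.81 ± 0.17 (SE, adjusted p = 0.0197). Ppef2 and Lrit2 fell by 0.70 and 0.59 on the log2 scale. The 2 higher genes were Cplx3, a complexin that amacrine cells also express, at 0.66, and Elfn2 at 0.65. Slc17a7, the vesicular glutamate transporter of photoreceptors and bipolar cells, had -0.52 ± 0.22 (SE, adjusted p = 0.156).

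Other lower genes were among the 10 largest losses in mean CPM, a ranking by counts, which also scale with transcript length. Dlg4, the scaffold protein PSD-95 that rod terminals hold in large amounts, was at 1432 and 1305 CPM in the controls and 732 and 578 CPM after light, with -1.06 ± 0.21 (SE, adjusted p = 0.0154). Map1b, a microtubule-associated protein, was at 1425 and 1555 CPM in the controls and 817 and 625 CPM after light, with -1.05 ± 0.21 (SE, adjusted p = 0.0173). The kinase gene Stk35 and the gene Pcmtd2 fell by 0.95 and 0.79 on the log2 scale. Agpat3, which builds phospholipids with docosahexaenoic acid, fell by 0.75. Elovl4, which elongates very long chain fatty acids of the outer segment and was not in that ranking, fell by 0.90. Of 14 genes of polyunsaturated lipids, Agpat3 and Elovl4 were lower, 2 were higher, and the median was 0.16 (all genes tested: 3.80% lower and 7.52% higher). Without light-exposed replicate 2, 0 of them passed in either direction.

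**Figure D3:**
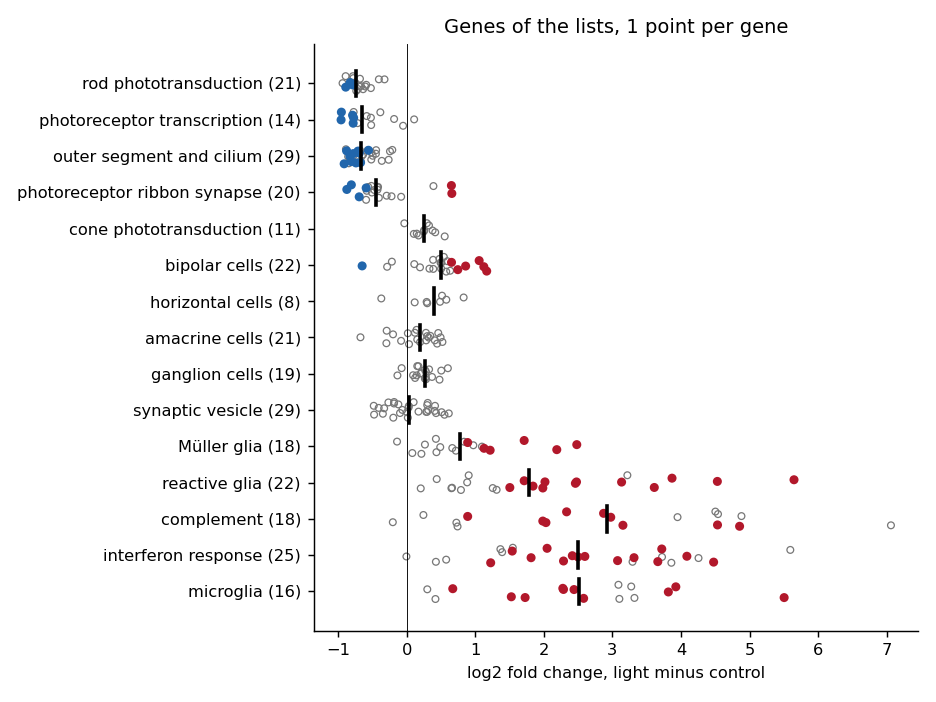
Each point is a gene of the list named on the y axis (number of tested genes in brackets), at its log2 fold change of light over control. Filled red and blue points passed an adjusted p of 0.05, open points did not, and black bars are list medians. The lists of rod and outer segment genes lie wholly left of 0, the cone and inner neuron lists lie around or right of 0, and the glial and immune lists extend far to the right.

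Promoters were examined because rod genes lay lower together. The letters TAATCC, a core that CRX and OTX2 are known to bind, were searched on both strands (reverse complement GGATTA) in the 250 bases before each start site of RefSeq (GRCm38.p6). They were found in 8 of 14 windows of the tested rod genes, where 14 of the 21 genes had a window. In the outer segment and cilium list, which was also lower by its median, they were in 5 of 27 windows. In a list of interferon-induced genes, which was higher by its median, they were in 3 of 20 windows. The share was 8.8% of 523 windows of all lower genes, 5.27% of 13595 windows of all genes tested and 6.25% of all 32851 windows. A match describes the letters and is not a site of binding, and its relation to the fall was not tested. The windows of Cngb1 (chr8:95306586-95306835, minus strand) and Gucy2f (chrX:142196937-142197186, minus strand), both lower after light, held 2 matches each, shown in capitals on the strand of the gene.
Cngb1: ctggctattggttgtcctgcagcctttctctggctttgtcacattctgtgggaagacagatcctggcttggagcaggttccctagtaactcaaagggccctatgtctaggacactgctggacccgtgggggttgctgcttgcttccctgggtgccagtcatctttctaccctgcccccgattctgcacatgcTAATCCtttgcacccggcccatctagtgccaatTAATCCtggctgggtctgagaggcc
Gucy2f: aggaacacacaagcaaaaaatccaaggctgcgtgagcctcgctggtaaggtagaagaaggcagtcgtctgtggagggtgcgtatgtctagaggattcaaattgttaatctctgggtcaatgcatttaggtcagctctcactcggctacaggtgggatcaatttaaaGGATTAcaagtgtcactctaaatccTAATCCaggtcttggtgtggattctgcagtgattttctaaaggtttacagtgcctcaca
In Cngb1 both matches lie in the part of the window nearest the start site, on the strand of the gene. In Gucy2f both strands carry a match.

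Among cone phototransduction genes no change was called. Of 11 tested, 0 passed in edgeR and 0 in DESeq2, 2 were higher and 0 lower at an unadjusted p of 0.05 (all genes: 2371 and 1773), and the median log2 fold change was 0.25, with a range of -0.04 to 0.55. Opn1sw, the short-wavelength cone opsin, was at 601 and 527 CPM in the controls and 824 and 557 CPM after light, so that replicate 2 overlapped the controls. Its log2 fold change was 0.29 ± 0.22 (SE, adjusted p = 0.406). Gnb3, a cone transducin subunit, was at 707 and 867 CPM in the controls and 1067 and 974 CPM after light, with 0.37 ± 0.20 (SE, adjusted p = 0.239). The summed level of the cone list was 2333 and 2432 CPM in the controls and 3112 and 2553 CPM after light. With total library size, 3 cone genes were called higher and the median was 0.49. That rods and cones differed in their change was not tested.

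Bipolar cells receive the photoreceptor signal, and several of their genes rose. Of 22 tested, 6 were higher (all genes tested: 7.52%) and 1 lower, with a median log2 fold change of 0.50. The number higher was 12 with total library size, but 1 in the fit of all 6 libraries and 1 without light-exposed replicate 2. Trpm1, the cation channel that opens in ON bipolar cells at light onset, was at 253 and 316 CPM in the controls and 489 and 752 CPM after light, with 1.12 ± 0.23 (SE, adjusted p = 0.0194). Gpr179, which holds the regulators of that channel at the dendrite tip, was at 164 and 180.4 CPM in the controls and 229 and 312 CPM after light, with 0.65 ± 0.18 (SE, adjusted p = 0.039). The homeobox factors Vsx1 and Isl1 rose by 1.16 and 1.05 on the log2 scale, and Pcp2, a modulator of Go signalling, by 0.74. Grm6, the glutamate receptor upstream of Trpm1, had 0.50 ± 0.17 (SE, adjusted p = 0.0862). The gene called lower was Lrit3, an adhesion protein that photoreceptors make and that assembles Trpm1 across the synapse, at 78.6 and 95.3 CPM in the controls and 61.1 and 49.5 CPM after light, with -0.65 ± 0.17 (SE, adjusted p = 0.0313). Isl1 is also known from cholinergic amacrine and ganglion cells.

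Lists of the remaining neurons held few or no calls. For amacrine cells 0 of 21, for horizontal cells 0 of 8 and for ganglion cells 0 of 19 tested genes passed in edgeR, with medians of 0.19, 0.39 and 0.26. DESeq2 called 0 of them too, and at an unadjusted p of 0.05, 3 amacrine genes were higher and 0 genes of the other lists. The control replicates themselves were apart in these lists. The median log2 ratio of the ganglion cell list to the control mean was 0.40 in control 1 and -0.40 in control 2, and without control 2 its log2 fold change turned to -0.09. The 29 synaptic vesicle genes had a median of 0.02 and 0 calls in edgeR, with 3 higher and 3 lower at an unadjusted p of 0.05 and 2 lower in DESeq2. Glutamate receptor genes had 1 higher of 24, Gria4 at 0.66 ± 0.16 (SE, adjusted p = 0.0267), and GABA and glycine receptor genes 1 of 22, both shares under the 7.52% of all genes. Each receptor list had 7 calls with total library size and 0 in the fit of all 6 libraries. Adhesion genes of neurons had 5 higher of 34, namely Sdk2, Nlgn1, Cntn1, Nrcam and Nrxn3, with log2 fold changes of 0.59 to 0.90, but 1 higher in the fit of all 6 libraries and 0 without light-exposed replicate 2. Among 40 voltage-gated channel genes, 2 were higher, Cacna2d1 and Cacna2d3, and 2 were lower, Kcnv2 among them, near the 7.52% and 3.80% of all genes. With total library size 12 were higher and 0 lower, and without light-exposed replicate 2 0 passed in either direction.

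**Figure D4:**
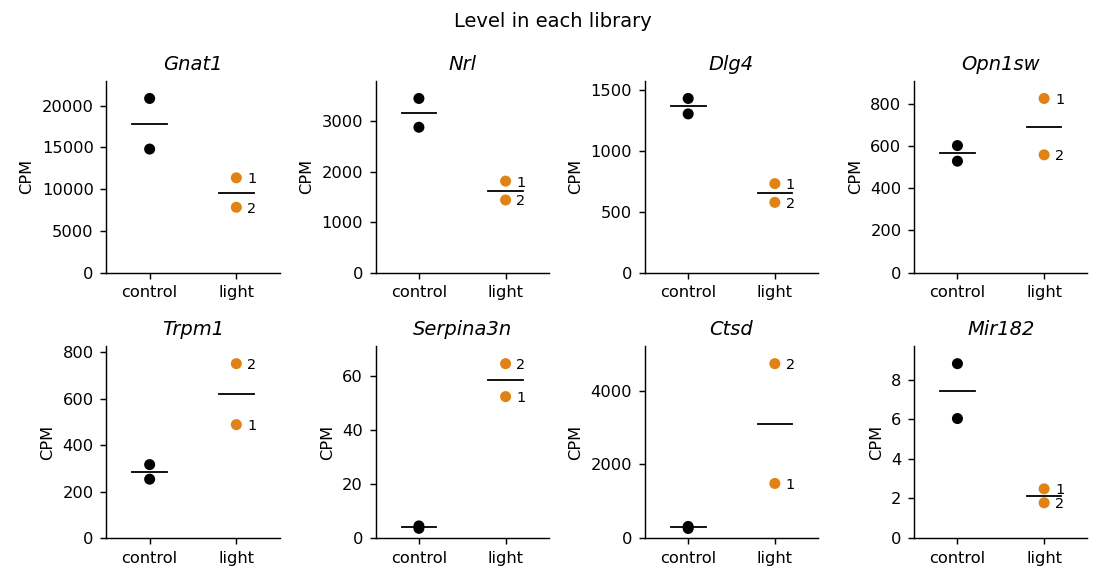
CPM of 8 genes in each library, control in black and light-exposed in orange, with group means as lines, y axes from 0 and light-exposed replicates numbered. For Gnat1, Nrl, Dlg4 and Mir182 both light-exposed points lie under both controls, for Trpm1, Serpina3n and Ctsd above them, and for Opn1sw replicate 2 lies between the controls.

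Müller glia span the retina and recycle glutamate. Of 18 of their genes, 6 were higher (all genes tested: 7.52%) and 0 lower, with a median log2 fold change of 0.77. DESeq2 called 10 higher, and the median was 1.04 without control 1 and 0.46 without control 2. Crym, a thyroid hormone-binding protein, was at 36.5 and 28.6 CPM in the controls and 116 and 181 CPM after light, with 2.19 ± 0.23 (SE, adjusted p = 0.00627). Apoe, a lipid carrier that microglia make as well, was at 210.0 and 173 CPM in the controls and 616 and 1519.8 CPM after light, with 2.48 ± 0.47 (SE, adjusted p = 0.0375). Vim, an intermediate filament, Prdx6, a peroxidase, Slc1a3, the glutamate transporter GLAST, and Clu, a secreted chaperone, rose by 1.71, 1.21, 1.13 and 0.89 on the log2 scale. Glul, the glutamine synthetase, had 1487 and 943 CPM in the controls and 1437 and 1378 CPM after light, where control 1 exceeded both light-exposed libraries.

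Of 22 genes of the reactive state of glia 12 were higher (all genes tested: 7.52%) and 0 lower, with a median of 1.78. Without control 1 the number higher was 2, and without control 2 it was 4. Serpina3n, a protease inhibitor of reactive astrocytes, was at 4.44 and 3.55 CPM in the controls and 52.3 and 64.5 CPM after light, with 3.87 ± 0.21 (SE, adjusted p = 2.09e-05), the smallest p among the genes tested. Steap4, a metalloreductase, had 6 and 7 counts in the controls and 454 and 427 counts after light, with 5.65 ± 0.34 (SE, adjusted p = 2.61e-05). Lcn2, an iron-binding lipocalin, was at 5.59 and 5.39 CPM in the controls and 58.6 and 37.9 CPM after light, with 3.13 ± 0.24 (SE, adjusted p = 0.000312). Unlike most higher genes, Steap4, Lcn2 and Timp1, an inhibitor of matrix proteases, had lower values in light-exposed replicate 2 than in replicate 1. Gfap, the filament of reactive Müller cells and astrocytes, was at 16.9 and 25.8 CPM in the controls and 66.2 and 106 CPM after light, with 2.02 ± 0.29 (SE, adjusted p = 0.0154). Cp, the copper-carrying ferroxidase, was at 108 and 115 CPM in the controls and 354 and 525 CPM after light, with 1.98 ± 0.20 (SE, adjusted p = 0.00214). Edn2, an endothelin of injured photoreceptors, had 9.45 and 31.2 CPM in the controls and 44.2 and 32.0 CPM after light, so that control 2 lay at the level of light-exposed replicate 2, and its log2 fold change of 0.90 ± 0.68 (SE, adjusted p = 0.485) did not pass.

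Genes of the oxidative stress response were higher in 9 of 25 cases (all genes tested: 7.52%), and in 6 without light-exposed replicate 2. The metallothioneins Mt2 and Mt1, which bind zinc and copper, were among the 10 largest gains in mean CPM. Mt2 was at 41.7 and 42.7 CPM in the controls and 202 and 341 CPM after light, with 2.68 ± 0.25 (SE, adjusted p = 0.00346), and Mt1 was at 65.3 and 61.5 CPM in the controls and 196 and 343 CPM after light, with 2.09 ± 0.26 (SE, adjusted p = 0.00899). The glutathione peroxidases Gpx3 and Gpx1, the cystine transporter Slc7a11 and the heme oxygenase Hmox1 rose by 2.35, 0.97, 0.93 and 0.98 on the log2 scale. Acsl3, an acyl-CoA synthetase outside the list and among the 10 largest gains in mean CPM, rose by 0.94.

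Many genes of microglia rose. Some genes of this and the following lists had under 10 counts in a library, so the numbers called are also given with 10 counts required in every library. Of 16 homeostatic microglia genes 10 were higher, with a median of 2.51, and of 26 genes of phagocytic microglia 14, with a median of 3.42 (all genes tested: 7.52% higher). DESeq2 called 14 and 25 of these genes higher, and edgeR without a filter on low counts 9 in each list. Without light-exposed replicate 2 the medians were 1.93 and 2.18, with 9 and 22 genes higher. With 10 counts in every library, 7 of 13 homeostatic and 9 of 20 phagocytic genes were higher. Cx3cr1, the fractalkine receptor, was at 2.94 and 2.13 CPM in the controls and 19.5 and 51.8 CPM after light, with 3.82 ± 0.60 (SE, adjusted p = 0.0282). Among the 15 largest rises with at least 10 counts in every library were Lcp1, an actin-bundling protein of blood-derived cells, the receptor chain Fcer1g and the phosphatase Ptprc (CD45), at 4.87, 4.61 and 3.93. Pld4, Lgals9, Cyth4, Ncf1, Dab2, Unc93b1 and Rnase4 were in the same group, at 3.52 to 4.05. Rnase4 overlaps Ang in the annotation, so its counts are less certain. Light-exposed replicate 2 was the highest library for each of these genes.

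The lysosome list had 5 higher of 30 (all genes tested: 7.52%), with a median of 1.68. The count depended on the fit and was 21 in DESeq2, 20 in edgeR without robust estimation, 19 in the fit of all 6 libraries and 15 without light-exposed replicate 2, where the median was 0.94. Ctsd, a lysosomal protease, had the largest gain in mean CPM of all genes that passed, at 313 and 257 CPM in the controls and 1482 and 4742 CPM after light, with 3.45 ± 0.64 (SE, adjusted p = 0.0418). Light-exposed replicate 2 exceeded replicate 1 by far. Psap, the precursor of the saposins, was at 469 and 398 CPM in the controls and 688 and 1209 CPM after light, with 1.13 ± 0.26 (SE, adjusted p = 0.0278), and Ctsl, another protease, was at 123 and 90.5 CPM in the controls and 275 and 512 CPM after light, with 1.88 ± 0.33 (SE, adjusted p = 0.0246). Lyz2, the lysozyme of macrophages, was at 2.01 and 4.26 CPM in the controls and 148 and 559 CPM after light, with light-exposed libraries far apart, and its log2 fold change of 6.82 ± 1.18 (SE, adjusted p = 0.0814) did not pass.

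Complement genes were higher in 9 of 18 cases, where the share over all genes tested, for this and the next 3 lists, was 7.52%. C3, the central component, was at 1.36 and 0.923 CPM in the controls and 18.7 and 34.4 CPM after light, with 4.53 ± 0.38 (SE, adjusted p = 0.00106), and Serping1, the inhibitor of C1, was at 2.29 and 2.48 CPM in the controls and 17.6 and 24.9 CPM after light, with 3.15 ± 0.28 (SE, adjusted p = 0.000739). Of 25 interferon-induced genes 14 were higher, with a median of 2.50. Oasl2, a relative of the oligoadenylate synthetases, was at 1.43 and 1.77 CPM in the controls and 12.6 and 29.7 CPM after light, with 3.72 ± 0.46 (SE, adjusted p = 0.00924). Bst2, the tetherin that holds budding viruses, was at 1.29 and 1.92 CPM in the controls and 9.92 and 30.7 CPM after light, with 3.66 ± 0.66 (SE, adjusted p = 0.0322), and Ifit3 had 17 and 12 counts in the controls and 63 and 286 counts after light, with 3.07 ± 0.69 (SE, adjusted p = 0.0381). Of 16 genes of MHC class I presentation 11 were higher, among them the transporter Tap1 and the immunoproteasome subunit Psmb8, at 2.11 and 3.28. The class I heavy chain genes share sequence with one another, which leaves their single counts less certain. Of 5 tested MHC class II genes 4 were higher, among them H2-Ab1 with 37 and 22 counts in the controls and 106 and 150 counts after light. Without light-exposed replicate 2 the calls in the complement, interferon, MHC class I and MHC class II lists were 11, 12, 10 and 2, and in DESeq2 they were 11, 21, 13 and 3. With 10 counts required in every library they were 4 of 12, 12 of 16, 9 of 14 and 1 of 2.

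The promoters of the interferon list were searched for GAAANNGAA, the core of the interferon-stimulated response element, on both strands (reverse complement TTCNNTTTC). It was found in 7 of 20 windows of 17 genes. The shares were 7.89% of 1090 windows of all higher genes, 5.99% of those of all genes tested and 7.13% of all windows. Bst2 (chr8:71537473-71537722, minus strand) and Ifit3 (chr19:34583279-34583528, plus strand) are shown with the matches in capitals.
Bst2: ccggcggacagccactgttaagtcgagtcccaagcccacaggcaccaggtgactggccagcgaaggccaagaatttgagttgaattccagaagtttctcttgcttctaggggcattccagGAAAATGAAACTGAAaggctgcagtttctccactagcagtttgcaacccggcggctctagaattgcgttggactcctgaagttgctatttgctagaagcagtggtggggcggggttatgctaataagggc
Ifit3: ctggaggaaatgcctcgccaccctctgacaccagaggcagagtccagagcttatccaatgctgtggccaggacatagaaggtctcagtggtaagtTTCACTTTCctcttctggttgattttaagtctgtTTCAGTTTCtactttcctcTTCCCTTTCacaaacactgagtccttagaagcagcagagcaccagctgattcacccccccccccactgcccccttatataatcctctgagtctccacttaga
In Bst2 the 2 matches overlap, and in Ifit3 there are 3 separate matches, all on the strand opposite to the gene.

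In the lists of cell division, cell death, chemokines and growth factors, counts are read against 7.52% higher over all genes tested. Of 20 genes of cell division 8 were higher, 5 without light-exposed replicate 2 and 1 of 13 where 10 counts were required in every library. Mki67, a protein of dividing cells, had 5 and 2 counts in the controls and 110 and 381 counts after light. Ccna2 went the other way without passing, at -0.43 ± 0.18 (SE, adjusted p = 0.138). In the cell death list 9 of 24 were higher (3 without light-exposed replicate 2, and 4 of 19 with 10 counts in every library), with a median of 0.43, among them the death receptor Tnfrsf1a at 2.37, the pore-forming Gsdmd at 2.23 and Casp8 at 2.84. Among chemokines and cytokines 6 of 14 tested genes were higher (3 without light-exposed replicate 2, and 3 of 8 with 10 counts in every library), including Il33, an alarmin of Müller glia, at 38.3 and 28.9 CPM in the controls and 67.2 and 82.5 CPM after light, with 1.16 ± 0.18 (SE, adjusted p = 0.00918). Lif, a cytokine of Müller cells in injured retina, was at 3.08 and 2.91 CPM in the controls and 5.55 and 10.0 CPM after light, with 1.38 ± 0.36 (SE, adjusted p = 0.0352). Growth factor genes were higher in 5 of 23 cases (3 without light-exposed replicate 2, and 3 of 19 with 10 counts in every library), namely Tgfb1, Pgf, Hgf, Mdk and Igf2, at 0.62 to 2.92.

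Of 24 genes of cholesterol synthesis and uptake, 0 passed in edgeR or DESeq2, 5 were lower at an unadjusted p of 0.05, and 22 had a negative log2 fold change, with a median of -0.33 that was -0.09 with total library size. In the glycolysis and lactate list 2 of 24 genes were lower (all genes tested: 3.80%) and 1 higher, with 6 lower in DESeq2, 10 at an unadjusted p of 0.05 in edgeR and 0 without light-exposed replicate 2. Hk2, a hexokinase that photoreceptors use, was at 462 and 443 CPM in the controls and 286 and 233 CPM after light, with -0.80 ± 0.17 (SE, adjusted p = 0.0197), and Slc16a3, a lactate transporter, fell by 0.77 on the log2 scale, while Hk3, a hexokinase of myeloid cells, rose by 3.72. The 41 respiratory chain genes had 0 calls in edgeR and DESeq2, 1 lower at an unadjusted p of 0.05 and a median of -0.03, which turned to 0.21 with total library size. The 33 ribosomal protein genes had 0 calls in edgeR and DESeq2, 1 higher at an unadjusted p of 0.05 and a median of 0.06. Of 19 clock genes, Rora and Arntl (BMAL1) fell by 0.76 and 0.65 on the log2 scale (all genes tested: 3.80% lower), and 0 were lower without light-exposed replicate 2. The time of day of sampling is not given in the sources used here.

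The 15 largest falls with at least 10 counts in every library lay outside the lists of photoreceptor genes. Prss56, a serine protease of Müller glia in the eye (chr1:87183102-87188405), had 132 and 72 counts in the controls and 32 and 28 counts after light, with a log2 fold change of -2.17 ± 0.41 (SE, adjusted p = 0.0141). Trib3, a pseudokinase of the stress response, had 296 and 345 counts in the controls and 145 and 145 counts after light, with -1.56 ± 0.22 (SE, adjusted p = 0.00806). Hdc, the histidine decarboxylase, had 92 and 85 counts in the controls and 44 and 42 counts after light, with -1.45 ± 0.34 (SE, adjusted p = 0.0246). Cdr2, an antigen of Purkinje cells, was at 444 and 319 CPM in the controls and 172 and 139 CPM after light, with -1.29 ± 0.20 (SE, adjusted p = 0.00899), and Glb1l3 was at 53.9 and 48.5 CPM in the controls and 23.7 and 18.4 CPM after light, with -1.28 ± 0.18 (SE, adjusted p = 0.00806). Rbm19, Spata9, Trim60, Dio3os, 1600014C23Rik and A930041C12Rik had log2 fold changes of -1.60 to -1.29. Dio3os is antisense to Dio3, and use of the strand in counting is not stated, so their reads cannot be told apart here.

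From a common family came Pcdhgb8, Pcdhga12 and Pcdhga11, at -1.43, -1.31 and -1.29. Pcdhga12 and Pcdhga11 encode gamma protocadherins, which give neurons a surface identity, whereas Pcdhgb8 is annotated as a transcribed pseudogene of this family. The whole family, Pcdhgb8 included, was therefore counted, after these values were seen and only in the edgeR fit of 4 libraries with TMM scaling. Of 22 gamma protocadherin genes 6 were lower, the 3 genes named here among them (all genes tested: 3.80%), and 0 higher, 21 had a negative log2 fold change, and the median was -0.72. In the neighbouring families the medians were -0.13 for 7 alpha and 0.26 for 21 beta protocadherin genes, with 0 calls. Gamma protocadherin transcripts share their last exons, so counts of single members are uncertain and the members are not independent.

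Among the large falls was also the microRNA gene Mir182, which belongs with Mir96 and Mir183 to a cluster of sensory organs. Libraries of polyadenylated RNA do not capture mature microRNAs, so the counts are those of precursor transcripts. Mir182 had 123 and 85 counts in the controls and 42 and 37 counts after light, with -1.81 ± 0.36 (SE, adjusted p = 0.0165), and Mir96, which had under 10 counts in some libraries, had 30 and 16 counts in the controls and 4 and 8 counts after light, with -2.35 ± 0.56 (SE, adjusted p = 0.0257). Mir183 had 10 and 8 counts in the controls and 3 and 5 after light and was too low to be tested. All 3 genes had fewer counts in each light-exposed library than in either control. Their mature 5p sequences (RefSeq, GRCm38.p6, minus strand of chromosome 6) are shown to compare their seeds, bases 2 to 8, in capitals.
miR-182-5p (chr6:30165962-30165986): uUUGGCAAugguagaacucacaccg
miR-96-5p (chr6:30169506-30169528): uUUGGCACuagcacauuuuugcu
miR-183-5p (chr6:30169711-30169732): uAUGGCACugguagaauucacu
The seeds of miR-182-5p and miR-96-5p share 6 of 7 letters, as do those of miR-96-5p and miR-183-5p, and miR-182-5p and miR-183-5p share 5.

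Early response genes, which cells transcribe within minutes of a stimulus, had a median of -0.93 (-0.30 without control 1 and -1.29 without control 2). Of 22 genes 17 were below 0, but 1 was called lower (all genes tested: 3.80%), Atf3 at -0.91 ± 0.25 (SE, adjusted p = 0.0479). Myc alone was higher (all genes tested: 7.52%), at 2.76, from 4 and 3 counts in the controls to 15 and 53 after light. With total library size and in the fit of all 6 libraries 0 were lower. In DESeq2 and with 10 counts required in every library 0 were higher. The controls were far apart for other members. Fos was at 363 and 105 CPM in the controls and 35.5 and 91.6 CPM after light, and Egr1 at 410.3 and 144 CPM in the controls and 63.9 and 136 CPM after light, so that control 1 exceeded the other 3 libraries by far while control 2 did not exceed light-exposed replicate 2 by much. Their log2 fold changes were -1.88 ± 1.02 (SE, adjusted p = 0.381) and -1.47 ± 0.78 (SE, adjusted p = 0.353). Of 19 genes of the unfolded protein and heat shock response, Trib3 and Herpud1 were lower, the latter by 0.51 on the log2 scale (all genes tested: 3.80% lower), against 1 lower without light-exposed replicate 2 and 1 with total library size.

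Genes that mark other tissues were examined beside these results. The share higher over all genes tested was 7.52%. Vessel genes were higher in 3 of 15 cases (1 without light-exposed replicate 2), with the VEGF receptor Kdr at 0.87 ± 0.17 (SE, adjusted p = 0.0166), and pericyte genes in 1 of 8, Cspg4 at 2.65. Genes of the extracellular matrix and its proteases were higher in 6 of 22 cases (4 of 19 with 10 counts in every library), among them the fibronectin gene Fn1, the tenascin gene Tnc and Sparc at 0.93, 0.96 and 0.83. Of 17 genes of monocytes and infiltrating macrophages 9 were tested. In edgeR 3 were higher (2 of 6 with 10 counts in every library), including Cd14, a co-receptor for lipopolysaccharide, at 2.40 ± 0.49 (SE, adjusted p = 0.0231). DESeq2 and the fit of all 6 libraries called 7 higher. Fn1 is a member of this list too. Ly6c2, Plac8, Chil3 and Cd163, too low to be tested, had 0 to 6 counts in every library. Ccr2, Lyz1, Ms4a4c and F13a1, also too low, had 0 or 1 counts in the controls. After light they had 10 and 12, 6 and 32, 7 and 26, and 5 and 8 counts. The pigment epithelium list summed to 1139 and 1252 CPM in the controls and 1181 and 1391 CPM after light, with 1 of 16 called higher, Trpm3 at 0.64, and a median of -0.41 that was 0.23 without control 2. Pigment cell genes summed to 20.6 and 80.3 CPM in the controls, and both light-exposed libraries lay between these values, with 0 of 8 called by edgeR or DESeq2 or past an unadjusted p of 0.05. Lymphocyte genes were near the limit of counting, with 2 of 18 tested, 0 of them called by either tool or past an unadjusted p of 0.05, and Cd3e, Nkg7 and Ms4a1 at 0 in all 4 libraries. Neutrophil genes had 2 of 12 tested and 1 higher, Csf3r, the receptor of a colony-stimulating factor. It had 13 and 11 counts in the controls and 60 and 306 counts after light. Without a filter and with 10 counts in every library, edgeR called 0 of the 2. S100a8 had 1 and 0 counts in the controls and 7 and 24 after light. Of the defining neutrophil genes, Retnlg, Ngp, Camp and Elane were at 0 in all 4 libraries, Mpo, Cxcr2 and Ltf had 0 to 6 counts, Mmp8 had 0 and 0 counts in the controls and 8 and 39 after light, and S100a9 had 2 and 0 in the controls and 6 and 4 after light. In the lens list 4 of 21 genes were tested and 3 were higher, Cryab at 1.66 ± 0.20 (SE, adjusted p = 0.0056), Bfsp2 with 9 and 16 counts in the controls and 54 and 120 counts after light, and Crybb3 with 10 and 14 counts in the controls and 77 and 50 counts after light. The lens genes that did not pass the filter on counts had most of their counts in light-exposed replicate 1, such as Crybb2 with 811 counts against 0 to 2 in the other libraries, and the part of lens RNA in the value of Crybb3 was not tested. Cryab was as high in replicate 2, at 84.8 CPM against 71.2 CPM in replicate 1. In the corneal list, Krt15 had 2 and 3 counts in the controls and 13 and 19 after light, and Krt12 had 36 and 6 in the controls and 43 and 128 after light. Krt15 passed in edgeR, and DESeq2, edgeR without a filter and the fit of all 6 libraries called 0 of the 7 tested corneal genes, against 0 of 2 in edgeR with 10 counts in every library.

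With all 6 libraries on a common scale, the lists were set beside the libraries from light-exposed retinas with minocycline, called A and B. These are compared with the same controls, so the values are given side by side without a test. The median log2 ratio of the rod list to the control mean was -0.54 and -0.97 after light alone and -0.11 and 0.05 with minocycline. For the outer segment and cilium list the values were -0.52 and -0.87 after light alone and -0.15 and -0.03 with minocycline, and for cones 0.39 and 0.07 against 0.17 and 0.05. For bipolar cells they were 0.35 and 0.69 against 0.43 and -0.16, and for Müller glia 0.68 and 0.93 against 0.58 and 0.21. The minocycline libraries stood apart in genes of other tissues, with median ratios of 3.22 and 5.19 for pigment cells, 3.23 and 3.89 for corneal epithelium, 1.08 and 1.81 for pericytes and, in A, 1.15 for ganglion cells, and the part of such tissue in the other lists was not tested.

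**Figure D5:**
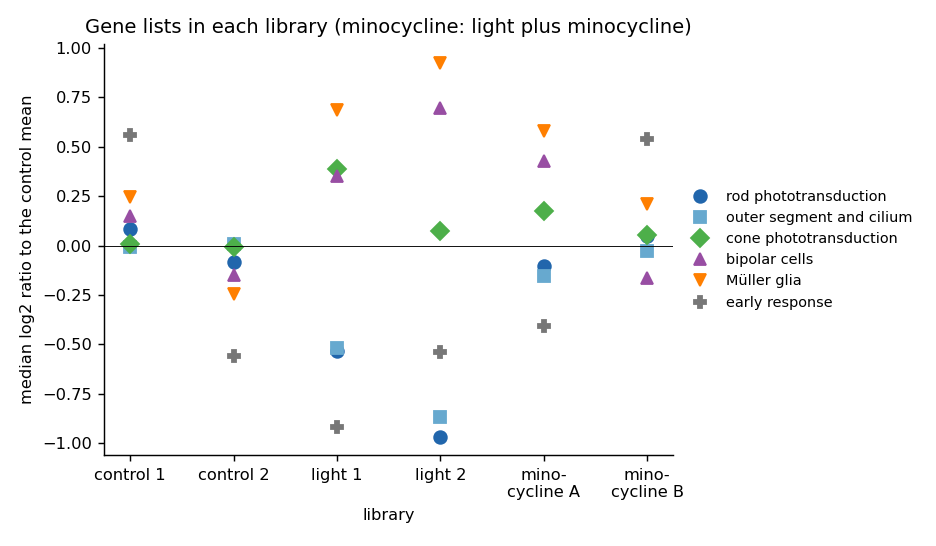
Median log2 ratio to the control mean (y axis) of 6 gene lists in each of the 6 libraries (x axis), 1 symbol per list. Rod and outer segment symbols drop in both light-exposed libraries and lie near 0 with minocycline, whereas the early response list differs as much between the controls as between groups.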

How the data were processed

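Retinal RNA of mice was made into stranded mRNA libraries and sequenced, and the deposited table holds whole-number read counts per gene, which the authors made by aligning the reads to the mouse genome mm10 (GRCm38) with STAR and assigning them to genes. The study's data statement calls the values normalized, but they are whole numbers whose library totals differ. The versions of STAR and of the authors' DESeq2, the gene annotation and the use of strand are not given in the sources used here. The labels and the study's methods differ in strain, light intensity, minocycline schedule and extraction kit. All value columns of the table were mapped to samples, the minocycline columns to their group only.

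Genes were filtered with filterByExpr over the 4 libraries, scaled by TMM and tested with edgeR 4.0.16 (R 4.3.3, quasi-likelihood F test, robust estimation, two-sided, Benjamini-Hochberg adjustment over all 14349 genes), with calls at an adjusted p of 0.05. The script was tested on simulated counts. Alternatives were DESeq2 1.42.0, other scalings and filters, a fit of all 6 libraries, a replicate block and leaving out each library. Named genes were the 15 largest called changes in each direction among genes that had 10 or more counts per library, the 10 largest gains and losses in mean CPM among called genes, and members of the lists. These members, lists and rules were chosen with earlier results of these data known. Levels are CPM of effective library size. The folds of genes with few counts depend on a prior count, so for such genes counts are given. Promoters, microRNAs and coordinates came from RefSeq GRCm38.p6. Replicate numbers do not pair the samples, since nothing in the labels ties same-numbered libraries together. Values of some list members and of a gene under the named-gene rule are not reported here.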

Additional observations from a re-analysis of the deposited data

How the results depend on the processing

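Counts of called genes depended on the processing in both directions. With total library size the higher genes numbered 1930, the lower 133 and those at least 4-fold lower 1. Without a filter on low counts 829 genes were lower, and in a fit of all 6 libraries 351. With at least 10 counts required in every library, 144 genes were at least 4-fold higher and 1 at least 4-fold lower. DESeq2 called 2 genes at least 4-fold lower. At an adjusted p of 0.01 the counts were 69 higher, 19 lower, 48 at least 4-fold higher and 0 at least 4-fold lower in edgeR. Leaving out 1 library at a time gave 4 to 1683 higher genes, 0 to 462 lower genes, 3 to 738 at least 4-fold higher and 0 to 8 at least 4-fold lower, where a lone sample is assumed to vary like the other group. The zero count of lower genes, from edgeR, came without control 1, where 2042 genes were lower at an unadjusted p of 0.05. DESeq2 was run on all 4 libraries only. With the replicate number as a block (replicate block), 1668 genes were higher and 857 lower, including all of the 1079 and 545, but the deviations of control 1 and light-exposed replicate 1 from their group means correlated at -0.0082 across genes, so the samples share only a number. Median log2 fold changes of the respiratory chain, clock and unfolded protein lists turned from negative to positive with total library size (to 0.21, 0.08 and 0.09), and those of the ganglion cell, synaptic vesicle and ribosomal lists from positive to negative without control 2 (to -0.09, -0.18 and -0.11). Of the named genes that had not passed, Glul turned in sign from one control to the other (log2 fold change -0.088 without control 2 and 0.57 without control 1), and Opn1sw from one light-exposed library to the other (-0.018 without replicate 1 and 0.54 without replicate 2). Depth limits genes with few counts in the controls, whose folds are uncertain.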
